A study of Homo sapiens with 4 samples.

Results

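The mitochondrial genome encodes 13 protein subunits of the respiratory chain and ATP synthase, and their mRNAs were followed across nuclear and cytoplasmic fractions of HEK293T cells, a human embryonic kidney line. Members were the genes of the deposited table whose symbol starts with MT-, which gave 13 genes of 51740, all of them protein-coding. GENCODE 44 places 2 rRNA and 22 tRNA genes on the same molecule, and these were not analysed here. All 13 had at least 10 counts in at least 2 libraries and were among the 18633 genes tested.

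The series asked how RNA is divided between nucleus and cytoplasm. Wildtype cells were crosslinked with formaldehyde, opened in a hypotonic NP-40 buffer that held EDTA and no MgCl2, and separated into a Nuclear fraction (2 libraries) and a Cytoplasmic fraction (2 libraries) from independent biological replicates. RNA was ribodepleted, not selected for a poly(A) tail, and sequenced in a stranded protocol with paired reads of 100 nt. The per-library counts were recovered by arithmetic from the deposited table, and the libraries are called a and b within each fraction by their scaling, since this table does not tie them to a replicate number. Each library held 21432934 to 24473307 gene counts. As a check of the fractions, the nuclear lncRNA MALAT1 had normalised counts of 28571 and 33938 in Nuclear a and b and of 3153 and 2485 in Cytoplasmic a and b, and NEAT1, the scaffold RNA of paraspeckles, had 5613, 4627, 606.2 and 596.3 in the same order. Their log2 differences, Cytoplasmic minus Nuclear, were -3.48 and -3.08.

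Human mitochondrial DNA is transcribed from both strands as long precursors, in which tRNAs lie between most of the mRNAs and are cut out to release them. The mRNAs have no introns, most gain a short poly(A) tail, and they are translated by mitochondrial ribosomes inside the organelle, which itself lies in the cytoplasm. Some genes are not parted by a tRNA: MT-ATP8 with MT-ATP6 and MT-ND4L with MT-ND4 overlap and are carried on shared mRNAs, while MT-ATP6 and MT-CO3 abut. MT-ND6 is the one protein gene read from the other strand, and the 3′ end of MT-ND5 faces its 3′ end. In whole fractions, the number of mitochondria recovered and the amount of RNA in each cannot be told apart, and in which fraction the mitochondria were collected was not measured. Below, values in the nucleus or in the cytoplasm are those of the Nuclear or Cytoplasmic fraction. They do not place a mitochondrial mRNA inside or outside the nucleus.

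The 4 borders without a tRNA are shown here. Neighbours across them differed in the data below, and so did neighbours at other borders. MT-ND3 and MT-ND4L, for one, had log2 differences of 3.46 and 0.49. Sequences are from hg38, on the strand of the heavy-strand mRNAs, with capitals for the bases that both genes share and, in the last, for the bases of MT-ND6, which is encoded on the opposite strand. They lie at chrM:8515-8584, chrM:9187-9227, chrM:10740-10786 and chrM:14119-14178.
MT-ATP8 and MT-ATP6: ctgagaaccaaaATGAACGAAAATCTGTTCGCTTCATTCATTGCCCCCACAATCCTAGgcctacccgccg
MT-ATP6 and MT-CO3: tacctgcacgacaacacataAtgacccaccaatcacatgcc
MT-ND4L and MT-ND4: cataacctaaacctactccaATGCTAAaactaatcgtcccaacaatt
MT-ND5 and MT-ND6: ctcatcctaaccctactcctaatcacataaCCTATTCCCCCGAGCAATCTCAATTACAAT
The shared stretch is 46 bases for MT-ATP8 and MT-ATP6, 1 base for MT-ATP6 and MT-CO3 and 7 bases for MT-ND4L and MT-ND4. Bases shared by several genes had been taken out of the annotation used for counting, so levels below were divided by the length that a gene shares with none. MT-ND5 and MT-ND6 share no base.

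The 13 mRNAs did not divide as a block. With limma on log2 normalised counts, called at an adjusted p of at most 0.01, 6 were higher in the cytoplasm (MT-ND3, MT-CO3, MT-CO2, MT-CO1, MT-ND2 and MT-ATP6), 2 were higher in the nucleus (MT-ND5 and MT-ND6) and 5 did not pass. Over all tested genes, 35.0% were called higher in the cytoplasm and 39.0% higher in the nucleus, so that calls in either direction were common. The median log2 difference, Cytoplasmic minus Nuclear, was 0.49 over the members, 0.13 over tested protein-coding genes and -0.13 over all tested genes. The span from MT-ND6 to MT-ND3 was 5.32 on the log2 scale. Scaling the libraries to equal totals in place of the size factors lowered every log2 difference by about 0.66. MT-ND3, MT-CO3, MT-CO2, MT-CO1 and MT-ND2 stayed called in the cytoplasm under it and MT-ND5 and MT-ND6 in the nucleus. MT-ATP6 then missed the threshold, MT-ND4 passed it in the nucleus, and MT-ND1, MT-ATP8, MT-ND4L and MT-CYB changed sign.

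**Figure D1:**
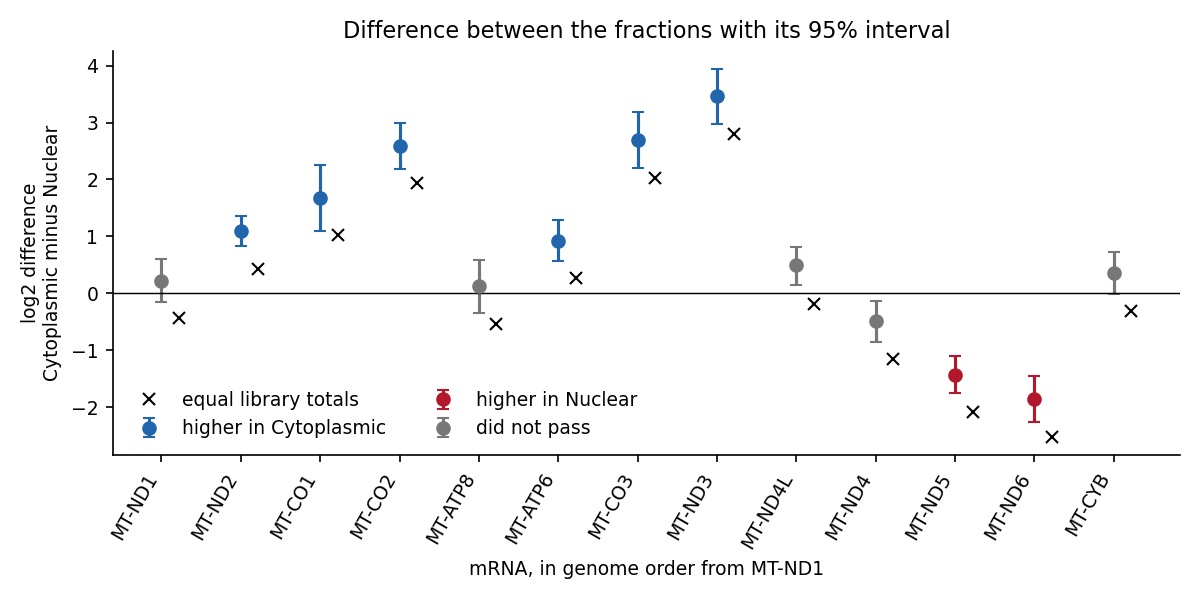
Log2 difference of normalised counts (Cytoplasmic minus Nuclear) for the 13 mRNAs in genome order, with 95% confidence intervals from limma as bars, and crosses for the values under equal library totals. MT-CO2, MT-CO3 and MT-ND3 lie highest, at 2.59, 2.69 and 3.46, and MT-ND5 and MT-ND6 lie lowest, at -1.43 and -1.86.

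Complex IV, cytochrome c oxidase, passes electrons to oxygen, and its 3 mitochondrially encoded subunits form the catalytic core. All 3 rose in the cytoplasm. MT-CO1 (ENSG00000198804, chrM:5904-7445, plus strand), the subunit that holds the oxygen-reducing centre, had normalised counts of 31819 and 44427 in Nuclear a and b and of 127903 and 113310 in Cytoplasmic a and b. The fractions did not overlap, and the log2 difference was 1.68 (SE 0.26, adjusted p = 0.00016), or 3.2-fold. How often the fractions separate over all tested genes is not given here, so non-overlap of a member is description only.

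MT-CO2 (ENSG00000198712, chrM:7586-8269, plus strand), which receives electrons from cytochrome c, had 3459 and 5167 normalised counts in the nucleus and 26947 and 24074 in the cytoplasm. Both cytoplasmic libraries lay far above both nuclear ones, at 6.02-fold and a log2 difference of 2.59 (SE 0.18, adjusted p = 3.78e-07). MT-CO3 (ENSG00000198938, chrM:9207-9990, plus strand), the third core subunit, had 8176 and 12895 normalised counts in the nucleus and 69059 and 63867 in the cytoplasm. Its log2 difference was 2.69 (SE 0.22, adjusted p = 1.27e-06), or 6.47-fold. The count ratio of MT-CO2 over MT-CO3 was 0.423 and 0.401 in the nucleus and 0.39 and 0.377 in the cytoplasm, which did not overlap but changed by only 1.07-fold. MT-CO1 over MT-CO2 was 9.2 and 8.6 in the nucleus and 4.75 and 4.71 in the cytoplasm.

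Complex I, NADH dehydrogenase, takes electrons from NADH, and its 7 mitochondrially encoded subunits sit in the membrane arm. These 7 held both ends of the range, with 2 higher in the cytoplasm, 2 higher in the nucleus, 3 that did not pass and a median log2 difference of 0.22. MT-ND3 (ENSG00000198840, chrM:10059-10404, plus strand) had the largest difference of the 13. Its normalised counts were 263.2 and 456.6 in the nucleus and 4286 and 3403 in the cytoplasm, and the log2 difference of 3.46 (SE 0.22, adjusted p = 1.54e-07) exceeded that of 98.8% of all tested genes. MT-ND2 (ENSG00000198763, chrM:4470-5511, plus strand) had 1563 and 1807 normalised counts in the nucleus and 3892 and 3314 in the cytoplasm. That was 2.14-fold, with a log2 difference of 1.10 (SE 0.12, adjusted p = 9.71e-06) and no overlap between the fractions.

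In the other direction, MT-ND5 (ENSG00000198786, chrM:12337-14148, plus strand) had 4038 and 4556 normalised counts in the nucleus and 1864 and 1366 in the cytoplasm. It fell by 1.43 on the log2 scale (SE 0.14, adjusted p = 6.07e-06), and was 2.69-fold higher in the nucleus. MT-ND6 (ENSG00000198695, chrM:14149-14673, minus strand), the light-strand gene, had 286.4 and 322.1 normalised counts in the nucleus and 94.97 and 72.89 in the cytoplasm. Its log2 difference was -1.86 (SE 0.18, adjusted p = 5.01e-06), or 3.63-fold higher in the nucleus. The kit keeps strand, but the strand setting of the counting is not given in the sources used here, and without it reads of MT-ND6 and RNA of the opposite strand could not be told apart.

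The remaining 3 complex I mRNAs differed less between the fractions and did not pass. MT-ND1 (ENSG00000198888, chrM:3307-4262, plus strand) had 873.3 and 1139 in the nucleus and 1395 and 974 in the cytoplasm. These overlap, and the log2 difference of 0.22 had an interval from -0.16 to 0.61 (adjusted p = 0.248). For MT-ND4L (ENSG00000212907, chrM:10470-10766, plus strand) the normalised counts were 673.4 and 863.6 against 1210 and 942.2, with a log2 difference of 0.49 (95% interval 0.15 to 0.82, adjusted p = 0.0121). MT-ND4 (ENSG00000198886, chrM:10760-12137, plus strand) had 4019 and 5013 in the nucleus and 3774 and 2711 in the cytoplasm, with a log2 difference of -0.49 (95% interval -0.85 to -0.13, adjusted p = 0.0176). For both of these overlapping neighbours the nuclear and cytoplasmic libraries did not overlap. With 2 libraries against 2, an exact two-sided permutation test gives p = 0.333 at best for such a separation. Both passed with voom weights (adjusted p = 0.00109 for MT-ND4L and 0.00138 for MT-ND4) and with a pseudocount of 4. Neither passed in limma without the filter on low counts (adjusted p = 0.0514 and 0.0651). Under equal library totals MT-ND4L turned to -0.18 and MT-ND4 stood at -1.15.

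Complex III, which hands electrons from ubiquinol to cytochrome c, has cytochrome b as its one mitochondrially encoded subunit. Its mRNA MT-CYB (ENSG00000198727, chrM:14747-15887, plus strand) had normalised counts of 2342 and 2976 in the nucleus and of 3964 and 2872 in the cytoplasm. The fractions overlapped, since Cytoplasmic b lay below Nuclear b, and the log2 difference of 0.35 did not pass (SE 0.16, adjusted p = 0.0648).

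ATP synthase, or complex V, draws on the proton gradient to make ATP, and its 2 mitochondrially encoded subunits belong to the membrane part. MT-ATP6 (ENSG00000198899, chrM:8527-9207, plus strand), the subunit that lines the proton path, had normalised counts of 1753 and 2210 in the nucleus and of 4433 and 3145 in the cytoplasm. It was 1.9-fold higher in the cytoplasm with a log2 difference of 0.92 (SE 0.16, adjusted p = 0.000432). MT-ATP8 (ENSG00000228253, chrM:8366-8572, plus strand), a small subunit, had 149.1 and 206 normalised counts against 219.3 and 165.7. Its fractions overlapped, with a log2 difference of 0.12 and an interval from -0.34 to 0.58 (adjusted p = 0.595).

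Neighbours that are carried on one mRNA, or that face each other, did not keep the same ratio in both fractions. A ratio within a library does not depend on the scaling between libraries. MT-ATP6 had 11.8 and 10.7 counts for each count of MT-ATP8 in the Nuclear libraries and 20.2 and 19 in the Cytoplasmic libraries, a change of 1.74-fold. MT-ND4 had 5.97 and 5.8 counts for each of MT-ND4L in the nucleus and 3.12 and 2.88 in the cytoplasm, so that this ratio was 1.96-fold higher in the nucleus. Per unshared length, MT-ND4 was above MT-ND4L in the nucleus, at 1.26 and 1.23, and below it in the cytoplasm, at 0.66 and 0.609. Which of the 2 lies above depends on division by 1371 and 290 bases, with no correction for reads at gene ends. The change between the fractions does not depend on that division. Across the border that follows MT-ATP6, the count ratio of MT-CO3 over MT-ATP6 rose from 4.66 and 5.84 to 15.6 and 20.3, or 3.41-fold. MT-ND5 over MT-ND6 was 14.1 in both Nuclear libraries and 19.6 and 18.7 in the Cytoplasmic ones, a 1.36-fold change. None of these 4 ratios overlapped between the fractions. The same held for 2 pairs that meet at none of the 4 borders, MT-CO1 over MT-CO2 (1.88-fold higher in the nucleus) and MT-CO2 over MT-CO3 (1.07-fold). Separated ratios were thus not particular to the border pairs, and how often other gene pairs separate was not counted. With 2 libraries against 2, an exact two-sided permutation test gave p = 0.333 for each, the smallest it can give.

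**Figure D2:**
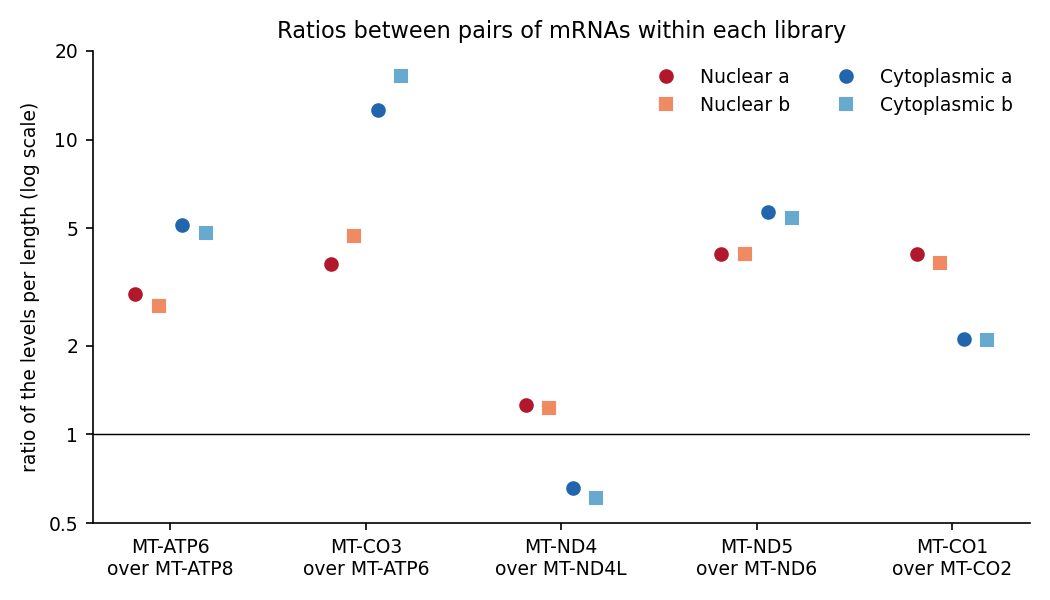
Ratio of the levels per unshared length of 5 pairs of mRNAs within each library, on a log axis, with 1 marked by a line. The Nuclear and Cytoplasmic libraries separate in every pair, and MT-ND4 over MT-ND4L crosses 1, from 1.26 and 1.23 in the nucleus to 0.66 and 0.609 in the cytoplasm.

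Per unshared length, in counts per kb per 1000000 gene counts, the complex IV mRNAs were the most abundant in both fractions and MT-ND6 the least. In the nucleus the mean levels were 1365 for MT-CO1, 743 for MT-CO3 and 348 for MT-CO2, with no overlap between these neighbours in the order. MT-ND4 (182), MT-ATP6 (172), MT-ND4L (146), MT-ND5 (131) and MT-CYB (129) followed, each overlapping the next within this run. Then came MT-ND2 (89.2) and, overlapping each other, MT-ATP8 (60.9), MT-ND1 (58.1) and MT-ND3 (57.5), and MT-ND6 closed the order at 32. In the cytoplasm MT-CO3 (2959) and MT-CO1 (2728) overlapped, followed by MT-CO2 (1301), MT-ND3 (388) and MT-ATP6 (209), each apart from the next. MT-ND4L (130), MT-ND2 (121), MT-CYB (105) and MT-ND4 (82.6) each overlapped the next within this run. MT-ND4 did not overlap MT-ND1 (43.3). MT-ND1 overlapped MT-ATP8 (41.7), MT-ATP8 overlapped MT-ND5 (31.1), and MT-ND6 came last at 5.58. MT-ND3 thus moved from rank 12 in the nucleus to rank 4 in the cytoplasm, and MT-ND5 from rank 7 to rank 12. The highest mean level was 42.7 times the lowest in the nucleus and 530 times the lowest in the cytoplasm.

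**Figure D3:**
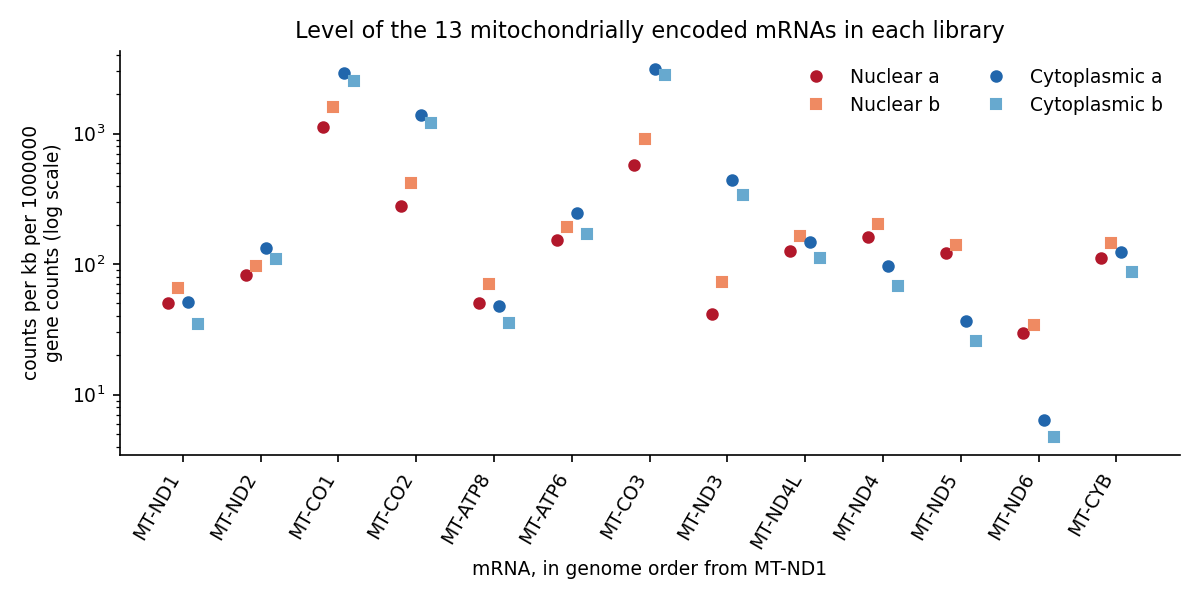
Level of each mRNA in the 4 libraries, in counts per kb of unshared length per 1000000 gene counts on a log axis, in genome order. MT-CO1, MT-CO2 and MT-CO3 lie above the rest in all 4 libraries, and MT-ND6 drops from 29.9 and 34 in the nucleus to 6.39 and 4.77 in the cytoplasm.

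Together the 13 mRNAs took 0.326% of gene counts in Nuclear a (exact 95% binomial interval 0.3233 to 0.3278%) and 0.455% in Nuclear b (0.4523 to 0.4581%). In Cytoplasmic a they took 0.88% (0.8762 to 0.8837%) and in Cytoplasmic b 0.757% (0.753 to 0.7602%). These intervals cover counting error only, and the spread between libraries was far wider. The mean was 0.39% ± 0.0917 (SD, n = 2) in the nucleus and 0.818% ± 0.0872 (SD, n = 2) in the cytoplasm, 2.1-fold apart. Complex IV mRNAs held 0.238 and 0.347% of gene counts in the nucleus and 0.791 and 0.691% in the cytoplasm. The complex I mRNAs held 0.0642 and 0.0786% in the nucleus and 0.0584 and 0.0439% in the cytoplasm. The direction for complex I turned with the scaling, since its summed normalised counts were 11716 and 14157 in the nucleus and 16516 and 12784 in the cytoplasm, where the fractions overlapped. Among the counts of the 13 mRNAs, complex IV made up 73.1 and 76.2% in the nucleus and 89.9 and 91.4% in the cytoplasm, and complex I fell from 19.7 and 17.3% to 6.63 and 5.81%. Without the abundant noncoding RNAs 7SK and 7SL in the total, the mean share of the 13 mRNAs was 0.923% in the cytoplasm and 0.396% in the nucleus.

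**Figure D4:**
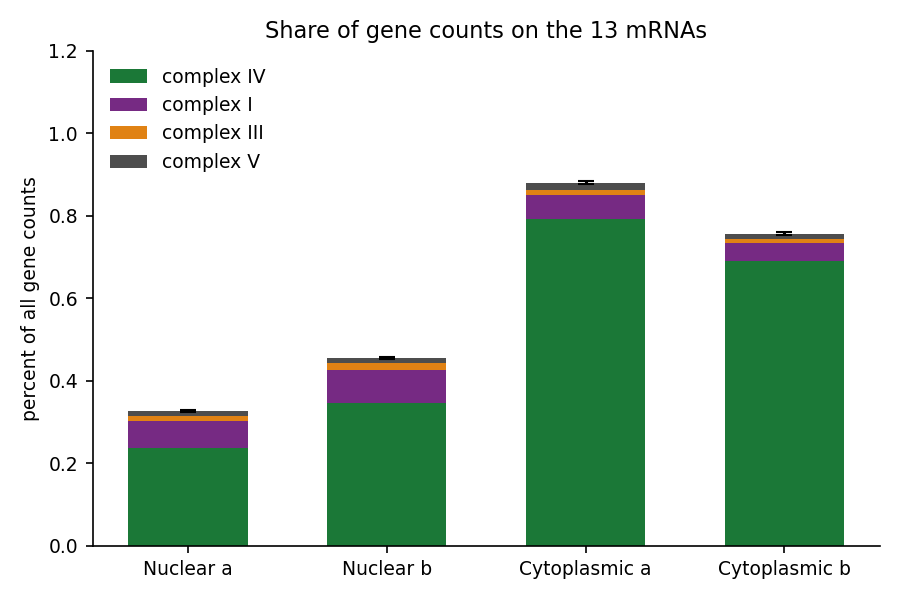
Percent of all gene counts on the 13 mRNAs in each library, stacked by respiratory complex, with bars for the exact 95% binomial interval of the total. The Cytoplasmic libraries reach 0.88 and 0.757% and the Nuclear libraries 0.326 and 0.455%, and complex IV takes most of each column.

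Within a fraction the replicates differed in one direction for every member. All 13 had higher normalised counts in Nuclear b than in Nuclear a, by 0.17 to 0.79 on the log2 scale with a median of 0.36, and all 13 were higher in Cytoplasmic a than in Cytoplasmic b, by 0.11 to 0.52 with a median of 0.38. The medians over all tested genes were 0 and -0.03. Of all tested genes, 50.7% were higher in Nuclear b than in Nuclear a, and 44.1% were higher in Cytoplasmic a than in Cytoplasmic b. Among the 11718 tested genes with a mean normalised count over 150, the 5th and 95th percentiles were -0.29 and 0.31 for the Nuclear pair and -0.30 and 0.36 for the Cytoplasmic pair. In the Nuclear pair MT-ND3, with 456.6 against 263.2, and MT-CO3, with 12895 against 8176, stood furthest apart. The recovered counts of MT-CO1 and MT-CO3 were chosen by a model of the replicate spread, so their gaps between replicates rest on that choice. What moved the 13 together was not tested. Leaving out each library in turn kept the sign of every called member, and MT-ND3 then ranged from 3.06 to 3.86.

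Nuclear DNA holds old copies of mitochondrial genes, to which reads can also align. Of all 100-base windows, 27.9% in MT-CO1, 26.1% in MT-ND2, 11.9% in MT-ATP6, 11% in MT-ND1, 4.67% in MT-CO3 and 2.39% in MT-CO2 had an exact match elsewhere in hg38, and the other 7 members had none. Of these 6 members with a match, 5 were higher in the cytoplasm and none in the nucleus, and of the 7 without, 1 was higher in the cytoplasm and 2 in the nucleus. Over all tested genes these calls made up 35.0 and 39.0%. The 5 include the 3 complex IV mRNAs, and MT-ND3, with the largest difference (3.46), has no match. Whether a match goes with the direction was not tested. The table held 340 nuclear copies, of which 44 had any count, and their counts came to 0.393% of those of the 13 members. The copy with the most counts, MTCO1P12 (chr1:631074-632616), had 177 and 180 counts in the nucleus and 234 and 145 in the cytoplasm. MTATP6P1 had 169, 167, 162 and 87 counts in the same order, and MTND2P28 had 85, 93, 104 and 82. MTCO3P12 had 16, 31, 68 and 22, and MTCO2P12 had 22, 18, 37 and 15. Adding the counts of its copies to each member left all 13 calls as they were, with MT-CO1 at 1.68 and MT-ATP6 at 0.88. Reads that matched several places and were not counted could not be added back.

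The nuclear genome encodes the other subunits of the same complexes, whose mRNAs are translated in the cytosol. Of 75 mRNAs listed for these complexes, 73 were higher in the cytoplasm and 2 in the nucleus, against the 35.0% and 39.0% of all tested genes. The complex V list includes ATP5IF1 (log2 difference 3.13), which encodes an inhibitor of ATP synthase and not a subunit. For complex IV, all 11 nuclear-encoded mRNAs rose, with a median log2 difference of 2.89, beside 2.59 for the 3 mitochondrially encoded ones. They ran from COX6A1 at 1.83 (SE 0.13) and COX6C at 2.16 (SE 0.11) to COX8A at 3.49 (SE 0.14) and COX7C at 3.54 (SE 0.12). For the other complexes the mitochondrially encoded medians lay lower. Complex I had 35 of 37 nuclear-encoded mRNAs higher in the cytoplasm with a median of 2.06, beside 0.22. NDUFB11 (3.64, SE 0.11) and NDUFB10 (3.18, SE 0.11) were highest, and NDUFS4 (-1.16, SE 0.10) and NDUFA10 (-0.93, SE 0.11) were the 2 higher in the nucleus. Complex III had 9 of 9, with a median of 2.75 beside 0.35 for MT-CYB, from UQCRC2 (1.25, SE 0.10) and UQCR11 (2.28, SE 0.10) to UQCRQ (3.30, SE 0.13) and UQCR10 (3.49, SE 0.12). Complex V had 18 of 18, with a median of 2.73 beside 0.52, from ATP5F1C (1.95, SE 0.09) and ATP5PF (2.27, SE 0.11) to ATP5ME (3.37, SE 0.11) and ATP5F1E (3.61, SE 0.11). Under equal library totals, 31 of the 37 complex I mRNAs were higher in the cytoplasm, and the counts for complexes III, IV and V stayed at 9, 11 and 18. Counts of nuclear-encoded genes include intronic reads, which mitochondrial genes do not have, and this limits setting the medians side by side. The difference between the genomes was not tested.

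**Figure D5:**
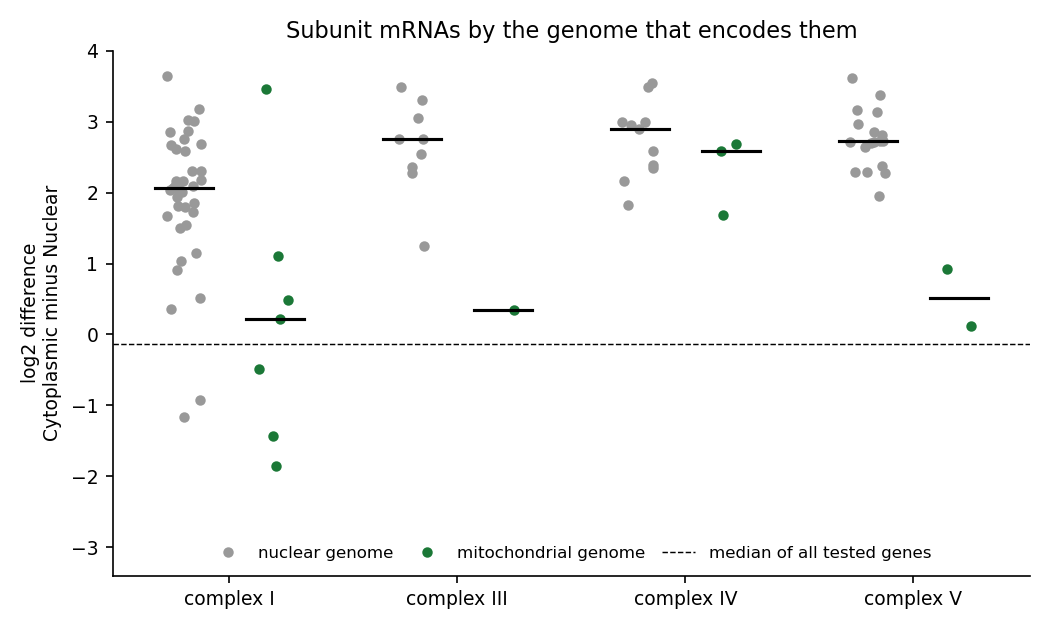
Log2 difference (Cytoplasmic minus Nuclear) of each subunit mRNA, by complex and by the genome that encodes it, with a bar at each median and a dashed line at the median of all tested genes, -0.13. The complex V points include the inhibitor ATP5IF1. The mitochondrially encoded medians lie at 0.22, 0.35 and 0.52 for complexes I, III and V and at 2.59 for complex IV, and the nuclear-encoded ones between 2.06 and 2.89.

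Genes for the machinery that copies, transcribes, processes and degrades mitochondrial nucleic acids are also nuclear. Of 50 listed, 48 were tested, with 20 higher in the cytoplasm, 17 higher in the nucleus, 11 that did not pass and a median log2 difference of -0.01. These are 41.7 and 35.4% of the 48, near the 35.0 and 39.0% of all tested genes, and under equal library totals the counts were 14 and 28. HSD17B10, a subunit of mitochondrial RNase P that frees the 5′ ends of tRNAs, had 328.1 and 323.7 normalised counts in the nucleus and 2361 and 2950 in the cytoplasm (log2 difference 3.02, SE 0.12). DDX28, an RNA helicase of mitochondrial RNA granules, had 126.8 and 143.8 against 690.6 and 670.6 (2.33, SE 0.13). MTERF1, which binds mitochondrial DNA and stops transcription, had 1057 and 1010 in the nucleus and 232.2 and 172.3 in the cytoplasm (-2.37, SE 0.15). TFB1M, a methyltransferase of mitochondrial rRNA, had 3530 and 3073 against 855.9 and 854.8 (-1.94, SE 0.10). These counts include intronic reads, which mitochondrial genes do not have.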

How the data were processed

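One deposited table was used, with 1 row per gene for 4 HEK293T libraries. Per the labels and methods, the authors aligned reads to hg38 with STAR, counted exons and introns with featureCounts 2.0.2 (GENCODE annotation with added genes, regions shared by several genes removed; strand setting not given in the sources used here) and compared fractions with DESeq2. The deposited mean normalised signal is the average over 4 libraries of counts divided by size factors. The deposited log2 fold change and its standard error, with the p-values beside them, hold the authors' own comparison. The fold change and standard error served as constraints in recovering counts, and the fold change also set the fraction means of 8 genes whose counts could not be recovered. No value of that comparison is printed, and the p-values were not used.

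The mean is a sum of whole counts times 4 fixed steps. Whole counts of each library were solved from it, and where several solutions fitted, from the fold change and standard error. For 15 genes several solutions were left even then, and 1 was chosen by its dispersion, the replicate spread that the standard error implies. The choice rested on a model of dispersions learnt on 2480 genes with 1 solution. This gave counts for 32470 of 32478 genes with a mean above 0 (99.98%), which hold 87.79% of the summed mean; size factors recomputed from them differed by at most 0.022%. MT-CO1 and MT-CO3 still had 16 and 6 solutions with the fold change and standard error applied, so their counts were set by the dispersion. The other members had 1. The 8 genes left, 7SK and 7SL among them, entered library totals only, as fraction means from the authors' mean and fold change (4.13 to 17.5% of a library), on which the shares, the levels per length and the equal-totals scaling therefore rest in part. Whether the choice by dispersion gave the true counts of MT-CO1 and MT-CO3 was not tested.

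Counts divided by size factors, plus 0.5, were tested on the log2 scale with limma 3.58.1 (mean-variance trend) in R 4.3.3 over 18633 genes with at least 10 counts in at least 2 libraries, with Benjamini-Hochberg adjustment over all of them and a call at 0.01, the study's threshold. Count models were not used, since the counts are reconstructed. Positions are from GENCODE 44, and nuclear matches were searched with BLAST 2.17.0. No other per-sample columns were present. Members and gene lists were chosen with earlier results of these data known. Outside the members, named genes are the 5 nuclear copies with most counts, MALAT1, NEAT1, and the 2 highest and 2 lowest called genes of each list. Alternatives were equal library totals with and without the members, a pseudocount of 4, no filter, voom weights, each library left out, copies added, another denominator for shares and, added after the data were seen, a replicate block.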

Additional observations from a re-analysis of the deposited data

How the results depend on the processing

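Equal library totals gave 5 members higher in the cytoplasm and 3 in the nucleus; over all tested genes they gave 4114 calls higher in the cytoplasm in place of 6519 (4140 with the members left out of the totals), so that 29.2% of calls were cytoplasmic in place of 47.3%, and 28 genes of the mitochondrial expression machinery higher in the nucleus in place of 17, also 28 without the members. Under equal totals the log2 differences of MT-ND1, MT-ATP8, MT-ND4L and MT-CYB turned to -0.44, -0.54, -0.18 and -0.31 (-0.43, -0.53, -0.17 and -0.30 without the members in the totals), which follows from the shift of every gene; MT-ATP6 was at 0.26 (adjusted p = 0.187) and MT-ND4 at -1.15 (adjusted p = 0.000157). A pseudocount of 4 or voom weights gave 7 and 3 calls, with MT-ND4L and MT-ND4 added, and no filter changed no member's call. Leaving out 1 library at a time gave 6 to 9 members higher in the cytoplasm and 2 to 3 in the nucleus; no call was lost. Without Cytoplasmic b, MT-ND1, MT-ND4L and MT-CYB passed in the cytoplasm, and without Nuclear b, MT-ND4L and MT-CYB did; without Nuclear a or without Cytoplasmic a, MT-ND4 passed in the nucleus. MT-ND1 ranged from -0.03 without Cytoplasmic a to 0.48, and MT-ATP8 from -0.11 without Nuclear a to 0.35, with -0.08 without Cytoplasmic a. The mean share in the cytoplasm was 0.923% without 7SK and 7SL in place of 0.818%. With a library left out, the lone library of its fraction is assumed to vary like the other fraction. The recovered libraries could not be matched with the replicate numbers of the labels, so a replicate block was fitted for both possible pairings, a choice made after seeing the data that leaves 1 residual degree of freedom. With Nuclear a paired with Cytoplasmic a, 6 members were higher in the cytoplasm and 2 in the nucleus (all genes 6316 and 6986); with Nuclear a paired with Cytoplasmic b, 8 and 3 (all genes 6921 and 7760), with MT-ND4L and MT-CYB added in the cytoplasm and MT-ND4 in the nucleus. Which pairing is the true one is not known. With 2 libraries per fraction, the standard errors of the members ran from 0.12 for MT-ND2 to 0.26 for MT-CO1. They were 0.20 for MT-ATP8 and 0.18 for MT-ND6, the members with the fewest counts. What limits the precision was not tested.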
